A study of Mus musculus with 4 samples.

Results

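The genes described here are long intergenic non-coding RNA (lincRNA) genes counted on the chromatin of mouse embryonic stem cells, with and without the transcription factor ZBTB21. The set was chosen by annotation and by measured level. A gene was taken where the GENCODE M21 annotation of mm10 gave it the type lincRNA and its count, summed over 4 libraries, was at least 40. Widely studied lincRNAs and families (all symbols starting with Platr or Snhg, and Malat1, Neat1, Tug1, Miat, Gas5, Sox2ot, Lncenc1, Pvt1, Meg3, Rian, Mirg and H19) were left out by name. This left 437 genes of the 36918 counted. The table held 5191 lincRNA genes, of which 31 were left out by name, 2886 of the others had no count in any library and 1837 had 1 to 39 counts. At the limit, 5 genes had a summed count of exactly 40 (Gm36823, Gm43129, Gm48970, Gm9951 and Mir142hg) and 5 had 39 and stayed out (1700096K18Rik, 2210420H20Rik, 4732487G21Rik, Gm5464 and Gm5608).

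RNA bound to chromatin was sequenced (ChAR-seq), a fraction in which unfinished transcripts are enriched. All 4 libraries came from embryonic stem cells with a degron (a tag that allows rapid destruction of the protein) on ZBTB21, a zinc finger protein of the ZBTB family, grown with LIF, CHIR99021, PD0325901 and serum. By the study's methods the tag was mAID-GFP, knocked into the endogenous gene of a line that expresses OsTIR1, the receptor needed for auxin-driven destruction, and clones were used. In the 2 ZBTB21_degron libraries the cells had 1 μg/ml doxycycline for 24 h and then 500 μM IAA, an auxin, for 6 h. The other 2 libraries are labelled untreated, and it is not stated whether those cells had doxycycline, so the comparison holds the agents as well as the loss of ZBTB21. The degron removes the protein, so RNA counts are no check of it, and the study showed its loss by western blot. Zbtb21 RNA itself was at 0.425 CPM (counts scaled to the TMM-corrected library size) in untreated replicate 1 and at 0 in the other 3 libraries, too low to be tested. Since the study detected the tagged protein in these cells, counts this low do not show that the gene is silent. Total counts were 4761133 and 4262382 in the untreated and 6479842 and 4931027 in the ZBTB21_degron libraries. The 437 genes took 0.695% and 0.689% of all counts in the untreated and 0.640% and 0.625% in the ZBTB21_degron libraries. For untreated replicate 1 the 95% Wilson interval of that share was 0.688% to 0.703%, and for ZBTB21_degron replicate 1 it was 0.634% to 0.646%, for counting error only. The summed level of 9 embryonic stem cell markers was 2558 and 2555 CPM in the untreated and 3243 and 3229 CPM in the ZBTB21_degron libraries. Of these 6 were higher (Pou5f1, Nanog, Esrrb, Klf4, Tfcp2l1 and Fgf4), Tdgf1 was lower (-0.63, edgeR adjusted p = 1.51e-07), Zfp42 did not pass (-0.10, 0.103), and Dppa5a was at or near 0 in all libraries. Markers of fibroblasts, endoderm, neural cells and mesoderm summed to 3.81 to 27.2 CPM per library. Afp, Sox1 and Tubb3 were at 0 in every library and Col1a1 and Postn under 1 CPM. Others were present, with Gata4 at 13.6 to 23.1, Nes at 20.7 to 21.4 and Thy1 at 3.46 to 7.01 CPM. Of these 16 markers 6 were tested, none was higher, and Gata6 (-1.23, adjusted p = 0.0385) and Pax6 (-1.004, 0.0448) were lower. The endoderm sum was 27.2 and 21.4 CPM in the untreated and 18.3 and 15.5 CPM in the ZBTB21_degron libraries. The part of these marker shifts in the lincRNA results was not tested. In such bulk samples, fewer cells that transcribe a gene and less RNA per cell cannot be told apart.

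LincRNA genes lie outside protein-coding genes and are transcribed by RNA polymerase II into long RNAs that encode no known protein. Many start close to a coding gene and run away from it, from a shared promoter region, and others arise at enhancers. Most are made at low levels, and much of their RNA remains at the locus. For some, such as Xist, which silences an X chromosome, a function is known, for others the gene serves as host for small RNAs, and for most no role has been described.

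The starts of 3 of the genes that the results turn on are shown first, as RefSeq windows on GRCm38.p6 from 250 bases before to 50 bases after the RefSeq start site, read 5′ to 3′ on the gene's strand. Gm34086 had the largest increase and starts beside the coding gene Vps37b (chr5:124032051-124032350, plus strand). F630040K05Rik had the largest decrease (chr17:45734256-45734555, plus strand) and Gm31108 was another of the genes that fell most (chr6:143153882-143154181, minus strand). Capitals mark CpG dinucleotides, of which the windows hold 43, 2 and 2.
Gm34086: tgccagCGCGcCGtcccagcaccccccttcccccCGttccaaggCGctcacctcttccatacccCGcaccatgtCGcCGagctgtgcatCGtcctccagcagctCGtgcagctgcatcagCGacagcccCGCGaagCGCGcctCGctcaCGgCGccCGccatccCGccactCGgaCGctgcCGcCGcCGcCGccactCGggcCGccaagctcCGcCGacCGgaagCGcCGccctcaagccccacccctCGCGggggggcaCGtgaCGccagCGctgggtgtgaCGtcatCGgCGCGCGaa
F630040K05Rik: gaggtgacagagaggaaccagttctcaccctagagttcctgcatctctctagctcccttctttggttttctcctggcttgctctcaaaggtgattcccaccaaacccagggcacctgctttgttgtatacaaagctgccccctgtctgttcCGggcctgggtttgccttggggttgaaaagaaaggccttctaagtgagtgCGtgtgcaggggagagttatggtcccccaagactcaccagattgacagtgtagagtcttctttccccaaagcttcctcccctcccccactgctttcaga
Gm31108: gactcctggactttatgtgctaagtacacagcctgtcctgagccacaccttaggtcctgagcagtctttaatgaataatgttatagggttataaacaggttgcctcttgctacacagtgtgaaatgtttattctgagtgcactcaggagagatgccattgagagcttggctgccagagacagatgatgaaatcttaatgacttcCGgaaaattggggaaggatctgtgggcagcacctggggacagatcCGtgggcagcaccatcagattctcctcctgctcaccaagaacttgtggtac

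Mature microRNAs (miRNAs) that lie within lincRNA genes on the same strand come next, with the seed (bases 2 to 8) in capitals, since the seed decides which messages a miRNA can pair with. Mir17hg, on chromosome 14, is the host of the miR-17 to miR-92 cluster, whose miRNAs promote proliferation. Within it miR-17-5p and miR-20a-5p share 1 seed and miR-19a-3p and miR-19b-3p another. The other 3 miRNAs are from host genes that passed the test for a change: miR-138-5p from C78859 (chromosome 8), miR-31-5p from AL805899.1 (chromosome 4) and miR-374b-5p from Ftx (X chromosome). AL805899.1 passed only narrowly and not in several alternatives, which are given with the miRNA hosts below.
miR-17-5p: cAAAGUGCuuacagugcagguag
miR-20a-5p: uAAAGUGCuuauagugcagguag
miR-18a-5p: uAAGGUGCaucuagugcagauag
miR-19a-3p: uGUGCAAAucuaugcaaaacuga
miR-19b-3p: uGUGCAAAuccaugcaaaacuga
miR-92a-3p: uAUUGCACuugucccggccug
miR-138-5p: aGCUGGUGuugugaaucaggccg
miR-31-5p: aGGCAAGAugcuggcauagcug
miR-374b-5p: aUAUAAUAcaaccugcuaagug

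Most of the 437 genes were present at low levels. The median gene had 103 counts over the 4 libraries, a mean level of 5.17 CPM (range 1.87 to 393) and a length of 15.6 kb (range 1.01 to 395). Scaled to gene length, the median was 0.400 CPM per kb and the highest 35.7. The genes lay on 20 chromosomes, had 3 exons in the median, and 23 had a single exon. Most had no name by function, since 258 are Gm numbers and 118 Riken clone names. No other annotated gene covered any part of 238, while 105 were covered over more than 10% of their length. Since the strand setting of the counting is not stated, reads of a covered gene cannot be told apart from those of a partner on the opposite strand.

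The most abundant were Lncpint, D030068K23Rik, Gm49797, 4930461G14Rik and B830012L14Rik. Lncpint, a p53-induced transcript that in mouse cells works with Polycomb proteins, was first with 404 and 407 CPM in the untreated and 383 and 378 CPM in the ZBTB21_degron libraries. Its log2 fold change of -0.09 ± 0.05 (SE) did not pass the test (edgeR adjusted p = 0.137), although it was 0.21 (adjusted p = 0.00143) with the length adjustment, in which each library is scaled along a curve of count on gene length. D030068K23Rik, of 199 kb on chromosome 8, had 230 and 227 CPM in the untreated against 159 and 157 CPM in the ZBTB21_degron libraries, and its groups lay far apart. It fell by 0.53 ± 0.06 on the log2 scale (adjusted p = 1.96e-09), or by 0.18 with the length adjustment. B830012L14Rik, in the imprinted Dlk1 to Dio3 region of chromosome 12, was at 198 and 193 CPM and then at 118 and 127 CPM. It fell by 0.68 ± 0.07 (adjusted p = 3.77e-11), and by 0.90 with the length adjustment. Gm49797 was at 188 and 194 and then 159 and 170 CPM, a decrease of 0.21 ± 0.06 (adjusted p = 0.00617) that became a log2 fold change of 0.05 (adjusted p = 0.569) with the length adjustment. It also missed the threshold with DESeq2 (0.0689) and without untreated replicate 2 (0.0598) or ZBTB21_degron replicate 1 (0.139). 4930461G14Rik, at 155 to 172 CPM, had a log2 fold change of 0.06 ± 0.07 (adjusted p = 0.468).

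Per kb of gene length the order was another, led by Mir17hg at 35.7 CPM per kb. Mir17hg had 117 and 140 CPM in the untreated and 135 and 157 CPM in the ZBTB21_degron libraries, so that the groups overlapped. Its log2 fold change was 0.19 ± 0.08 (adjusted p = 0.0521), and -0.04 with the length adjustment. It passed with total-count scaling (0.0122), without a filter (0.00794), at mean counts from 50 up (0.0363), and without untreated replicate 2 (0.32, 0.00152) or ZBTB21_degron replicate 1 (0.30, 0.00366). Mir17hg was followed by Epb41l4aos at 23.3, B830012L14Rik at 22.7, Gm17300 at 20.6 and 5430416N02Rik at 12 CPM per kb. Epb41l4aos is described with the genes of known role. Gm17300 lies within Rcc1 and Snhg3 on the opposite strand over its full length, so its reads cannot be assigned with certainty. Its log2 fold change was 0.06 ± 0.12 (adjusted p = 0.731). 5430416N02Rik had a log2 fold change of 0.19 ± 0.08 (adjusted p = 0.0478), which passed only narrowly. It missed the threshold with limma voom (0.0538), with DESeq2 (0.211), at mean counts from 50 up (0.0531), with the length adjustment (-0.00, 0.974) and without untreated replicate 1 (0.0887), untreated replicate 2 (0.126) or ZBTB21_degron replicate 2 (0.323).

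Of the 437 genes 431 could be tested, and of these 27 were higher and 74 lower in ZBTB21_degron cells (edgeR, adjusted p under 0.05 over all 14361 genes tested). The 6 not tested had summed counts of 40 to 47. The test rests on 2 libraries per group, it is not stated that these came from separate cultures, and so the p-values reflect the scatter among these libraries alone. Calls were frequent in this comparison: 20.3% of all tested genes were higher and 19.8% lower, or 40.2% in either direction. Of the lincRNA genes 6.26% were higher and 17.2% lower, 23.4% in all, so that calls of an increase were less frequent than the background and calls of a decrease close to it. Of protein-coding genes 22.1% were higher and 21% lower (43.1% in all). All directions here are relative to TMM scaling, so a shift shared by every gene is not measured. The study scaled its ChAR-seq by spike-in reads and reported that transcription was activated globally after ZBTB21 depletion. Over the lincRNA genes the log2 fold change had a median of -0.14, against -0.00 over all genes and -0.00 over protein-coding genes, and 60.3% of the lincRNA genes had a negative value against 50.1% of all genes. With DESeq2, 5 of the lincRNA genes were higher and 24 lower, against 10.6% and 10.2% of all genes (20.8% in either direction). DESeq2 gave an adjusted p for 16 of the 27 genes that were higher and 51 of the 74 that were lower, and leaves it open for the others.

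Because the power to call a change grows with the count, lincRNA and protein-coding genes were set side by side at matched summed counts. From 40 to below 100 counts the shares were alike, with 3.4% of 206 lincRNA genes higher and 6.8% lower against 3.67% and 8.11% of coding genes. From 100 to below 400 counts 5.92% of 152 lincRNA genes were higher and 17.8% lower, against 10.7% and 14.5%. At 400 or more counts, 11 of 73 lincRNA genes (15.1%) were higher and 33 (45.2%) lower, against 29.9% and 25.7% of coding genes. With the length adjustment, explained with the results by length, 7 of these 73 lincRNA genes (9.59%) were higher and 17 (23.3%) lower, against 28.4% and 10% of coding genes. The lower share of increases at 100 or more counts, and the larger share of decreases among the most abundant genes, are descriptions that were not tested.

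**Figure D1:**
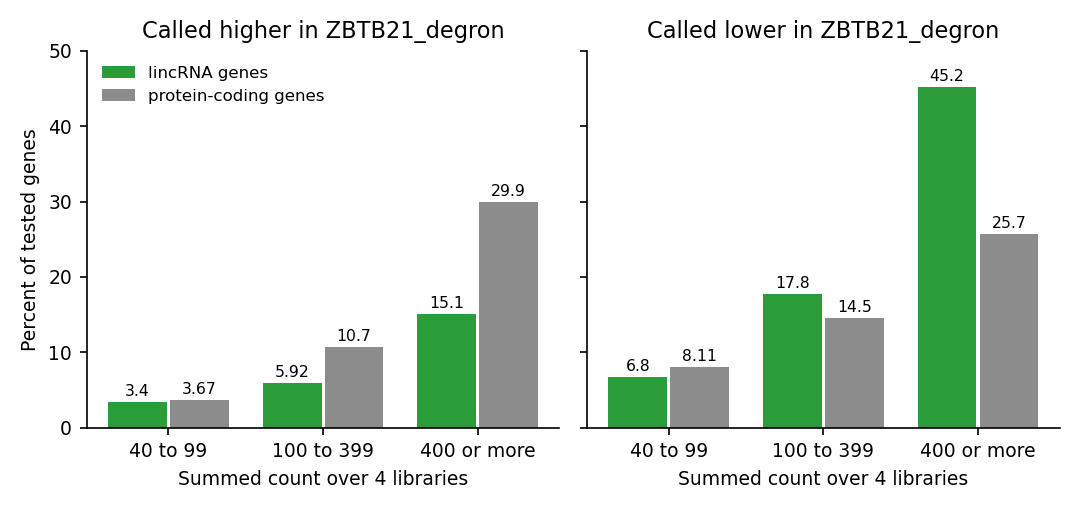
Percent of tested genes (vertical axis) that were called higher (left) or lower (right) in ZBTB21_degron libraries, by the count summed over 4 libraries (horizontal axis), for the lincRNA genes (green) and protein-coding genes (grey). At 400 or more counts 45.2% of lincRNA genes were lower against 25.7% of coding genes, and 15.1% were higher against 29.9% (with the length adjustment, 23.3% against 10% and 9.59% against 28.4%).

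The direction of change went with gene length. Of the 156 tested lincRNA genes of up to 10 kb, 20 were higher and 7 lower, with a median log2 fold change of 0.13. Of the 186 genes of 10 to 50 kb, 7 were higher and 33 lower (median -0.22). Of the 89 genes over 50 kb none was higher and 34 were lower (median -0.36). The lincRNA genes that were higher had a median length of 7.40 kb and those that were lower of 44.4 kb, and Spearman's correlation coefficient between log2 fold change and length was -0.37 over 431 genes. The same relation held over all 14361 genes (coefficient -0.47). There 29.0% of genes up to 10 kb were higher and 2.71% lower. From 10 to 50 kb these shares were 24.4% and 10.8%, and over 50 kb 6.68% and 48.4%. The points of both correlations share the 4 libraries and their scaling. Coding genes of 10 to 50 kb had a median log2 fold change of 0.06 and of up to 10 kb of 0.29, above the lincRNA genes of like length.

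Each library was therefore also scaled along a smooth curve of count on gene length, which removes any change common to genes of 1 length. On this scale 20 of the 431 lincRNA genes were higher and 54 lower, against 17.9% and 9.91% of all genes (27.8% in either direction) and 19.7% and 9.83% of protein-coding genes (29.5%), and 16 of the 27 increases and 46 of the 74 decreases were kept. The median over the lincRNA genes stayed at -0.14, while that over all genes was 0.03. Up to 10 kb, 11 lincRNA genes were then higher and 14 lower, with a median of -0.07, so that the direction in short lincRNA genes turned. Of all genes up to 10 kb 11.7% were higher and 6.51% lower on this scale (median 0.04). From 10 to 50 kb, 6 lincRNA genes were higher and 29 lower (median -0.24), against 19.8% and 9.33% of all genes (median 0.03). Over 50 kb 3 lincRNA genes were higher and 11 lower (median -0.08), against 20.0% and 13.7% of all genes (median 0.01). Among changes of at least 1 on the log2 scale, 9 of the 27 genes that were higher and 15 of the 74 that were lower, each kept its sign on the length-adjusted scale.

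**Figure D2:**
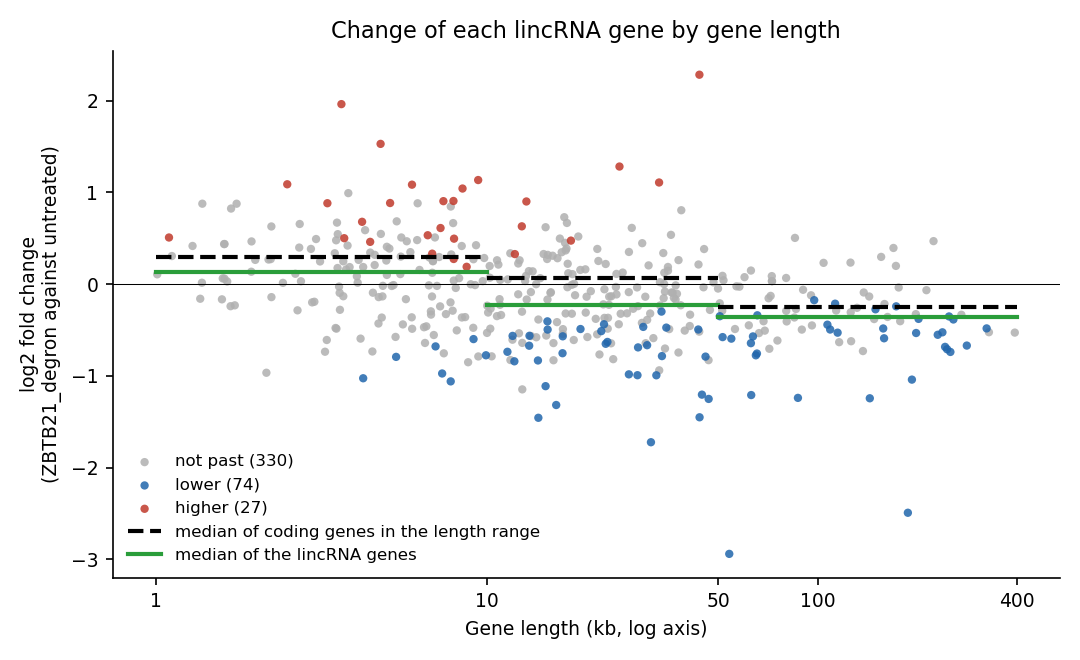
Log2 fold change of each of the 431 tested lincRNA genes (vertical axis) against its length in kb (log axis). Red points were higher, blue lower and grey did not pass the test, green lines are the medians of the lincRNA genes in 3 length ranges and dashed black lines those of coding genes. On the right side no point is red, and of the 89 genes over 50 kb 34 are blue and the others grey.

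In each of the 27 genes that were higher and the 74 that were lower, the 2 libraries of 1 group lay on the same side of both libraries of the other. Groups that do not overlap were common here. They were found in 95 lincRNA genes in the direction of higher and 160 in that of lower, against 34.4% and 34.6% of all tested genes, or 69% in either direction. The median absolute log2 fold change was 0.88 among the 27 genes that were higher and 0.66 among the 74 that were lower.

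The largest increase was that of Gm34086 (ENSMUSG00000106261, chr5:124032361-124076299 in mm10, plus strand, 5 exons). It had 7 and 14 counts in the untreated and 80 and 53 in the ZBTB21_degron libraries, or 1.49 and 3.34 against 12.2 and 10.8 CPM. Both ZBTB21_degron libraries lay far above either untreated one, with a log2 fold change of 2.28 ± 0.30 (edgeR adjusted p = 6.20e-08). Its first base lies 91 bp from the start of Vps37b, which is transcribed the other way and encodes a subunit of the ESCRT-I complex of endosomal sorting. Vps37b had 57.8 and 53.1 CPM in the untreated and 92.8 and 99.1 CPM in the ZBTB21_degron libraries and rose by 0.78 ± 0.09 (adjusted p = 1.25e-09). The change of Gm34086 was the larger, and both kept their size with the length adjustment (2.37 and 0.79). On the opposite strand, Abcb9 and the lincRNA gene Gm43661 lie within or across Gm34086 and cover 72.7% of it. Abcb9, a lysosomal peptide transporter, had a log2 fold change of 0.63 ± 0.34 that did not pass the test (adjusted p = 0.134).

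Among the other lincRNA genes with large increases, 5033406O09Rik and Gm36757 lie close together on chromosome 12, on opposite strands, and have the same nearest coding gene, Atp5mpl, a small subunit of mitochondrial ATP synthase. 5033406O09Rik (chr12, 2.49 kb) was at 4.25 and 4.29 CPM in the untreated and 7.78 and 10.8 CPM in the ZBTB21_degron libraries, an increase of 1.09 ± 0.27 (edgeR adjusted p = 0.0014). Gm36757, named after its values were seen, had only 3 and 4 counts and then 23 and 13, an increase of 1.96 ± 0.52 (adjusted p = 0.00217). Its call was lost without untreated replicate 1 (1.70, 0.0558) and without ZBTB21_degron replicate 1 (1.72, 0.0861). Atp5mpl was at 13.2 and 15.2 and then 25 and 21.6 CPM and rose by 0.73 ± 0.16 (adjusted p = 0.000369). 5033406O09Rik and Atp5mpl were thus both higher, and they remained so with the length adjustment (0.88 and 0.50). Gm36757 (1.74 on that scale) adds no support, since it entered the set mainly through its counts in the ZBTB21_degron libraries.

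Bvht (Braveheart), a lincRNA that in mouse cells is needed for commitment to the heart lineage, was at 16.6 and 20.7 CPM in the untreated and 33.1 and 36.8 CPM in the ZBTB21_degron libraries. The increase was 0.91 ± 0.14 (edgeR adjusted p = 1.52e-06), and its nearest coding gene, Il17b, was too low to be tested. Gm14321 went from 9.13 and 10.0 to 16.8 and 18.7 CPM, an increase of 0.88 ± 0.19 (adjusted p = 0.000218). Its nearest coding gene is Cebpb, a transcription factor 87.0 kb away, whose log2 fold change of 0.51 ± 0.27 did not pass (adjusted p = 0.137), although it was 0.93 (0.0398) without untreated replicate 1 and 0.80 (0.0293) without ZBTB21_degron replicate 1. Gm49503 went from 15.9 and 16 to 23 and 28.7 CPM, an increase of 0.68 ± 0.16 (adjusted p = 0.000562). It starts downstream of Cenpm, a centromere protein, on the same strand with a gap of only 0.248 kb, and Cenpm rose as well (0.55 ± 0.08, adjusted p = 5.95e-07).

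1810019N24Rik, at 6.16 and 5.72 CPM and then 12.4 and 9.56 CPM, rose by 0.90 ± 0.24 (edgeR adjusted p = 0.00227). Its neighbour Zfp324, a zinc finger gene on the opposite strand 4.07 kb away, rose by 0.81 ± 0.14 (adjusted p = 9.62e-06). The call of 1810019N24Rik was lost without ZBTB21_degron replicate 1 (0.69, 0.0704) and with DESeq2 (0.0767). F420014N23Rik, which starts 0.479 kb from Dtx3 and overlaps it, was at 4.25 and 3.57 and then 9 and 5.29 CPM. The increase of 0.90 ± 0.30 (adjusted p = 0.015) rested mainly on the first ZBTB21_degron library, without which it was 0.43 (0.450). The call also ended without untreated replicate 2 (0.80, 0.0832) and with the length adjustment (0.69, 0.0873). Dtx3, a probable ubiquitin ligase of the Deltex family, rose from 15.1 and 15 to 21.7 and 19.9 CPM (0.47 ± 0.16, adjusted p = 0.0178). Its call was lost with the length adjustment (0.24, 0.281), with DESeq2 (0.179), and without untreated replicate 1 (0.0757), untreated replicate 2 (0.0723) or ZBTB21_degron replicate 1 (0.110).

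**Figure D3:**
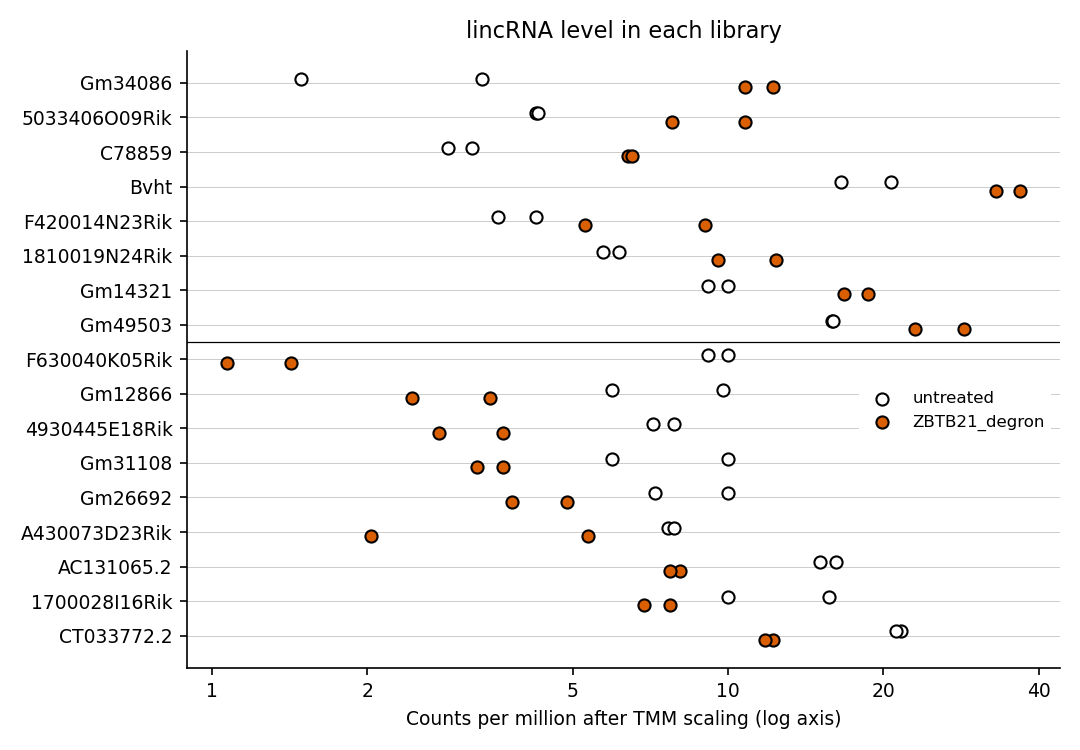
Level in each library, in CPM after TMM scaling (log axis), of the 8 lincRNA genes with the largest called increases (above the line) and of F630040K05Rik and the 8 genes with the largest called decreases (below), among those with a mean of at least 25 counts per library (F630040K05Rik was just under it). Open points are the 2 untreated and orange points the 2 ZBTB21_degron libraries. The rule took only genes whose groups do not overlap, so their separation follows from the choice. F630040K05Rik, taken by another rule, was also separate. Groups that do not overlap were found in 69% of all tested genes.

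The largest decrease was that of F630040K05Rik (ENSMUSG00000097727, chr17:45734506-45788594, plus strand, 5 exons), with 43 and 42 counts in the untreated and 7 and 7 in the ZBTB21_degron libraries. At 9.13 and 10.0 against 1.07 and 1.42 CPM it fell by 2.94 ± 0.35 on the log2 scale (edgeR adjusted p = 3.91e-09), and by 2.80 with the length adjustment. No other annotated gene overlaps it. The closest coding start, that of 1600014C23Rik, lies 0.662 kb away on the other strand, and that gene was not tested.

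The next largest was AC133601.1 (ENSMUSG00000118257, chromosome 18), a gene named after its values were seen because its counts were low, at 21 and 15 in the untreated and 5 and 3 in the ZBTB21_degron libraries. It fell by 2.49 ± 0.48 (edgeR adjusted p = 5.51e-05). It starts 119 bp from Spry4, transcribed the other way. Spry4 encodes an inhibitor of receptor tyrosine kinase signalling that is itself induced by the FGF and ERK pathway. Spry4 had 42 and 41 counts in the untreated and 11 and 1 in the ZBTB21_degron libraries, or 8.92 and 9.77 against 1.68 and 0.203 CPM, and fell by 3.13 ± 0.39 (adjusted p = 1.34e-08). The decrease of Spry4 was larger without ZBTB21_degron replicate 1 (-5.34), which leaves the library with 1 count. Both genes of the pair were called lower, and both kept the call in each alternative that gave a value. AC133601.1 entered the set mainly through its counts in the untreated libraries, so its decrease adds no support to that of Spry4. Further along, 59.9% of AC133601.1 is covered by Arhgap26 on the same strand, and Arhgap26 had a log2 fold change of -0.76 ± 0.38 (adjusted p = 0.111).

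Gm12866 (chromosome 4) was at 9.77 and 5.96 CPM in the untreated and 2.44 and 3.46 CPM in the ZBTB21_degron libraries, a decrease of 1.46 ± 0.31 (edgeR adjusted p = 0.000218). Its nearest coding gene, at 39.6 kb, is Slc2a1, the glucose transporter GLUT1. Slc2a1 was at 452 and 443 and then 255 and 244 CPM and fell by 0.84 ± 0.05 (adjusted p = 4.97e-17), with nearly the same value after length adjustment (-0.83). Without untreated replicate 1, Gm12866 fell short of the threshold (-1.03, adjusted p = 0.0507).

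4930445E18Rik (46.9 kb, chromosome 15) was at 7.86 and 7.15 and then 2.75 and 3.66 CPM, a decrease of 1.25 ± 0.30 (edgeR adjusted p = 0.000739). Its neighbour Basp1, a membrane-bound signalling protein 30.6 kb away, fell by 0.63 ± 0.07 (adjusted p = 8.57e-10). Gm31108 (44.7 kb, chromosome 6), whose CpG-poor start was shown first, was at 9.98 and 5.96 and then 3.66 and 3.25 CPM, a decrease of 1.21 ± 0.30 (adjusted p = 0.00111). Its neighbour on the same strand, C2cd5, fell by 0.40 ± 0.06 (adjusted p = 1.61e-06). Gm26692, at 7.22 and 10.0 and then 3.81 and 4.88 CPM, fell by 0.99 ± 0.28 (adjusted p = 0.00348). Rpap2, a phosphatase of RNA polymerase II that overlaps it on the opposite strand, fell by 0.67 ± 0.09 (adjusted p = 4.84e-08). Gm31108 lost its call without untreated replicate 1 (-0.76, 0.146), and Gm26692 without untreated replicate 2 (-0.74, 0.105) or ZBTB21_degron replicate 1 (-0.80, 0.0548).

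The remaining named decreases lay beside coding genes that were not called, not tested or changed little. AC131065.2 went from 15.1 and 16.2 to 8.09 and 7.73 CPM, a decrease of 0.97 ± 0.20 (edgeR adjusted p = 0.00012), while Rbfa, which overlaps it on the opposite strand, had a log2 fold change of 0.25 ± 0.14 (adjusted p = 0.143). CT033772.2 went from 21.7 and 21.2 to 12.2 and 11.8 CPM, a decrease of 0.83 ± 0.17 (adjusted p = 0.000104), while Zfp870, 1.28 kb away on the same strand, had a log2 fold change of -0.05 ± 0.14 (adjusted p = 0.805). A430073D23Rik was at 7.65 and 7.86 and then at 5.34 and 2.03 CPM, with ZBTB21_degron libraries that lay well apart. Its decrease of 0.98 ± 0.30 (adjusted p = 0.00859) became 0.53 without ZBTB21_degron replicate 2 (0.187) and 1.91 without ZBTB21_degron replicate 1, and its nearest coding gene was not tested. 1700028I16Rik, at 15.7 and 10.0 and then 6.87 and 7.73 CPM, fell by 0.84 ± 0.23 (adjusted p = 0.00255), and by 0.46 (0.252) without untreated replicate 1. Its neighbour Txnrd1, the cytosolic thioredoxin reductase, fell by 0.22 ± 0.04 (adjusted p = 0.000117), and had a log2 fold change of -0.04 (0.587) with the length adjustment.

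A list of 39 names of non-coding RNAs with a described role was looked up. GENCODE gave 16 of them the type lincRNA and 16 another type, and 7 matched no symbol (1 of these, Linc-p21, is another name of Trp53cor1). Of the 16 lincRNA genes, 12 were among the 437, and all 12 were tested, while the other 4 had fewer than 40 counts. Of these 3 were higher (Bvht, Epb41l4aos and Mir124a-1hg), 2 were lower (Xist and Ftx) and 7 did not pass, with a median log2 fold change of -0.05 (0.05 with the length adjustment). The counts were the same with the length adjustment, although Mir124a-1hg then missed the threshold and Lncpint passed it. Xist, Ftx and Jpx belong to the X inactivation centre, where Ftx and Jpx act as positive regulators of Xist. Ftx was at 50.5 and 57.7 CPM in the untreated and 32.5 and 37 CPM in the ZBTB21_degron libraries and fell by 0.64 ± 0.11 (edgeR adjusted p = 7.71e-06). Xist was at 11.7 and 9.53 and then 8.09 and 5.09 CPM, a decrease of 0.65 ± 0.24 (adjusted p = 0.0263), but the antisense gene Tsix and others cover it fully on the opposite strand. Its call was lost with DESeq2 (0.201), without untreated replicate 1 (-0.48, 0.238) and without ZBTB21_degron replicate 2 (-0.39, 0.240), and without ZBTB21_degron replicate 1 the value was -1.06. Jpx, at 1.83 to 4.58 CPM, had a log2 fold change of -0.13 ± 0.37 (adjusted p = 0.814). All 6 genes on the X chromosome had negative values, and 3 were lower. Of all tested genes 50.1% had a negative value and 19.8% were lower, and of all tested lincRNA genes 60.3% and 17.2%. The 6 genes had a median length of 42.9 kb. Negative values were found in 43.9% of all genes of 10 to 50 kb and in 79.8% of those over 50 kb. No share over X-linked genes was taken, so nothing particular to the X chromosome can be read from this.

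Trp53cor1 (lincRNA-p21), a p53 target that lies 11.8 kb from Cdkn1a, had 36.1 and 30.3 CPM in the untreated and 41.7 and 37.2 CPM in the ZBTB21_degron libraries. Its log2 fold change of 0.25 ± 0.12 did not pass (edgeR adjusted p = 0.0898), except without untreated replicate 1 (0.40, 0.0349). Cdkn1a, the cell cycle inhibitor p21, rose by 0.49 ± 0.06 (adjusted p = 4.64e-08). Lockd, beside the related inhibitor gene Cdkn1b, had a log2 fold change of -0.27 ± 0.15 (adjusted p = 0.154), and Cdkn1b one of 0.41 ± 0.21 (adjusted p = 0.130). Halr1, upstream of the Hoxa cluster, was at 9.31 to 13.2 CPM with a log2 fold change of -0.35 ± 0.21 (adjusted p = 0.181). Epb41l4aos, 1.09 kb long and host of a small nucleolar RNA, rose from 18.7 and 23.3 to 27.2 and 33 CPM (0.51 ± 0.15, adjusted p = 0.00461). Its neighbour Epb41l4a, a gene of 211 kb that lies 0.341 kb away on the opposite strand, fell from 333 and 348 to 208 and 204 CPM (-0.72 ± 0.06, adjusted p = 4.26e-14). The call of Epb41l4aos was lost with DESeq2 (0.0831), without untreated replicate 1 (0.36, 0.116) and without ZBTB21_degron replicate 2 (0.38, 0.0590).

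A miRNA hairpin of RefSeq lay on the same strand within 15 of the 437 genes, 6 of which held more than 1. Of the 14 that were tested, 1 was higher, 3 were lower and 10 did not pass, with a median log2 fold change of 0.03 (-0.06 with the length adjustment). The one that rose was C78859, with the hairpin of miR-138-5p, at 3.19 and 2.86 CPM in the untreated and 6.41 and 6.51 CPM in the ZBTB21_degron libraries (1.08 ± 0.31, edgeR adjusted p = 0.00498). AL805899.1, with that of miR-31-5p, went from 7.01 and 7.39 to 4.58 and 4.27 CPM and fell by 0.69 ± 0.28 (adjusted p = 0.0428). This call was lost without any 1 of the 4 libraries (adjusted p 0.112 to 0.170), with no filter (0.0857), with total-count scaling (0.0513) and with the length adjustment (0.0602). Ftx, with the hairpin of miR-374b-5p, fell as given above. 6030407O03Rik, of 246 kb with the hairpin of Mir6351, went from 40.1 and 35 to 22.7 and 23.4 CPM and fell by 0.71 ± 0.13 (adjusted p = 1.89e-05), with a value of -0.33 (0.0518) with the length adjustment. Among the genes not called were Mir17hg, 6720427I07Rik with a let-7 cluster (59.2 CPM, log2 fold change -0.09 ± 0.09, adjusted p = 0.491) and 4833445I07Rik with miR-191 and miR-425 (0.03 ± 0.18, adjusted p = 0.920). Mir9-3hg, host of the neural miRNA miR-9, had 9.76 to 10.5 CPM and a log2 fold change of 0.00 ± 0.20 (adjusted p = 1.00). Mir670hg had one of 0.23 ± 0.21 (adjusted p = 0.390). Mir124a-1hg, host of the neural miRNA miR-124 by its GENCODE annotation, rose from 17.4 and 12.9 to 24.3 and 19.3 CPM (0.53 ± 0.17, adjusted p = 0.0105). It lost the call with the length adjustment (0.30, 0.184), with DESeq2 (0.141) and without untreated replicate 2 (0.35, 0.188) or ZBTB21_degron replicate 1 (0.35, 0.193). The counts are of the host gene, not of the mature miRNA.

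**Figure D4:**
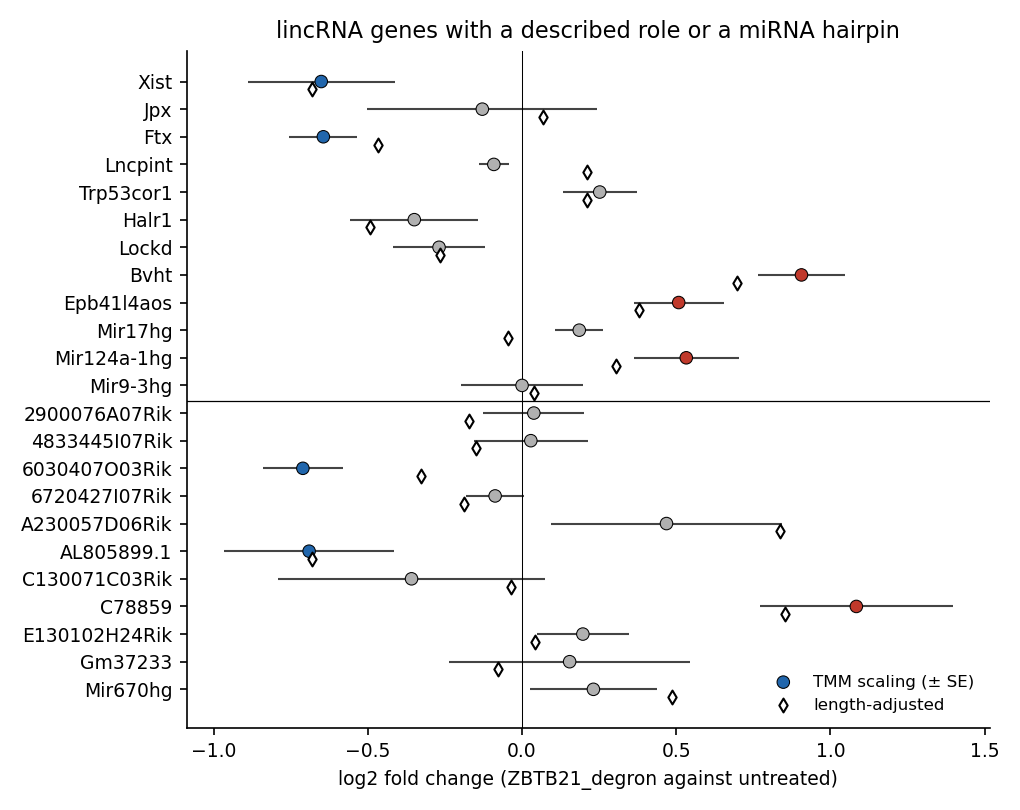
Log2 fold change, ZBTB21_degron against untreated (horizontal axis), of the 12 lincRNA genes with a described role (above the line) and of the other tested genes that hold a RefSeq miRNA hairpin (below). Circles with SE bars are from the TMM-scaled test (red higher, blue lower, grey did not pass) and diamonds are the length-adjusted values. Bvht and C78859 lie farthest to the right and 6030407O03Rik farthest to the left.

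Each lincRNA gene was then set beside its nearest protein-coding gene. By the gap between gene bodies, 50 of the 437 were divergent (opposite strands, transcribed away from each other, starts at most 2 kb apart), 40 overlapped a coding gene in another way, 145 were apart on opposite strands, and 110 lay downstream and 92 upstream on the same strand. The neighbours were 408 distinct genes, of which 23 were shared by 52 lincRNA genes. In 340 pairs both genes were tested. Both were called in the same direction in 28 pairs (8 higher and 20 lower) and in opposite directions in 14. Where the lincRNA was higher, the coding gene was higher in 8 of 25 pairs (32%) and lower in 6 (24%), and over all 340 pairs 24.1% of the coding genes were higher and 28.2% lower. Where the lincRNA was lower, the coding gene was lower in 20 of 57 pairs (35.1%) and higher in 8 (14%). Spearman's correlation coefficient between the 2 log2 fold changes was 0.28 over 340 pairs, and 0.21 with the length adjustment, where 14 pairs were called alike and 8 in opposite directions. All pairs share the 4 libraries, their scaling and in part their lengths.

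The pairs were also divided by the distance between the genes, with no test between the distances. Spearman's coefficient was 0.38 for 35 overlapping pairs, 0.32 for 105 pairs up to 5 kb apart, 0.32 for 136 pairs 5 to 50 kb apart and 0.03 for 64 pairs over 50 kb apart. Of the overlapping pairs, 4 were called in the same and 0 in opposite directions. In pairs up to 5 kb apart these counts were 5 and 1, at 5 to 50 kb 12 and 6, and over 50 kb 7 and 7. With the length adjustment the coefficients were 0.46, 0.20, 0.26 and 0.00 in the same order. Calls in the same and in opposite directions were then 3 and 0, 3 and 1, 6 and 5, and 2 and 2 in that order. The share of pairs with the same sign was 65.7% where genes overlapped and 49.5% up to 5 kb. It was 52.9% at 5 to 50 kb and 53.1% over 50 kb. The lincRNA genes far from any coding gene were also the longer, with a median of 25.2 kb over 50 kb away and 8.96 kb within 5 kb, and the former had a median log2 fold change of -0.30 and the latter of -0.01. With the length adjustment these were -0.19 and -0.13.

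**Figure D5:**
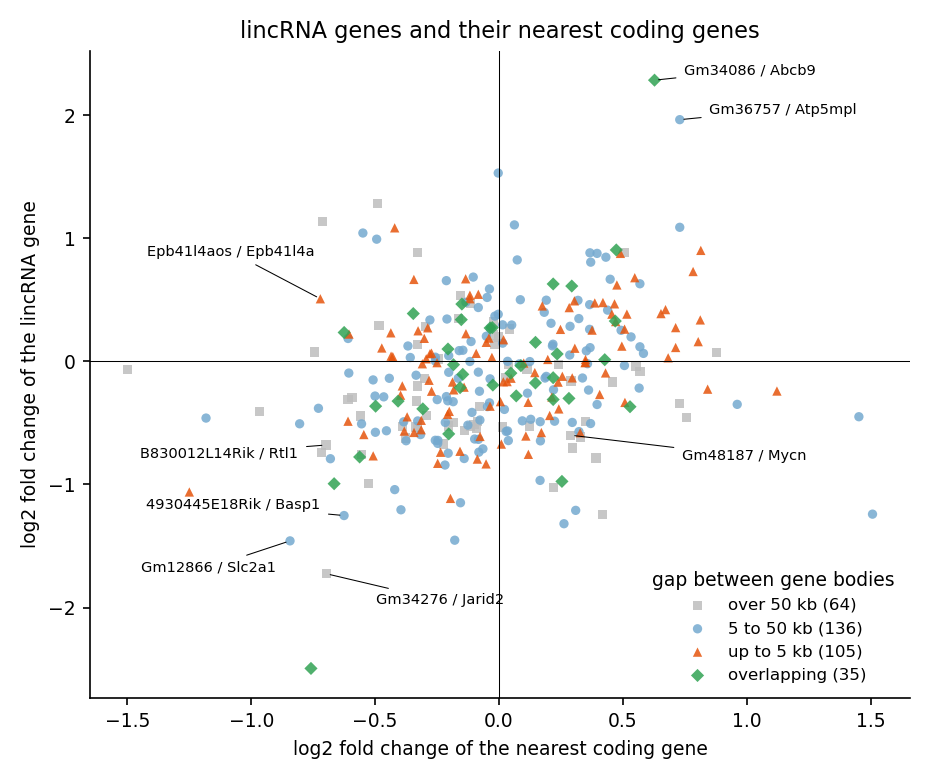
Log2 fold change of each lincRNA gene (vertical axis) against that of its nearest protein-coding gene (horizontal axis) in the 340 pairs where both were tested, by the gap between gene bodies. Pairs over 50 kb apart (grey squares, coefficient 0.03) spread without direction, while those nearer lean to the lower left and upper right (coefficient 0.32 to 0.38). With the length adjustment, not shown, the coefficients were 0.46 for overlapping pairs, 0.20 up to 5 kb, 0.26 at 5 to 50 kb and 0.00 over 50 kb. Pairs with the same sign were then 49.5% up to 5 kb and 53.1% over 50 kb. The difference between distances was not tested.

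By start site instead of gene body, 62 lincRNA genes were divergent from a coding gene, and in 57 of these pairs, with a median distance of 145 bp between starts, both genes were tested. Of the 4 lincRNA genes that were higher, the coding partner was higher in all 4 (Gm34086 and Vps37b, F420014N23Rik and Dtx3, 1700086O06Rik and Dele1, and AI480526 and Setd1b). Of the 5 that were lower, the partner was lower in 2 (AC133601.1 and Spry4, and 6030443J06Rik and Orc5) and did not pass in 3. In all 57 pairs the coding gene was higher in 17 and lower in 12. No pair was called in opposite directions. AC133601.1 entered the set mainly through its counts in the untreated libraries, where it is high. Spearman's coefficient was 0.445 over these 57 pairs and 0.194 with the length adjustment, where 1 pair was called higher alike (Gm34086 and Vps37b) and 1 lower (AC133601.1 and Spry4). Where the lincRNA did not pass, the coding gene alone was higher in 13 pairs and lower in 10.

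The changes in the other divergent pairs were smaller. 1700086O06Rik was at 28.7 and 27.2 CPM in the untreated and 32.2 and 38.7 CPM in the ZBTB21_degron libraries (0.33 ± 0.13, edgeR adjusted p = 0.0379) and Dele1, which relays mitochondrial stress, rose by 0.47 ± 0.13 (adjusted p = 0.00248 by edgeR and 0.0702 by DESeq2). AI480526 was at 40.6 and 36.7 and then 45 and 49 CPM (0.27 ± 0.11, adjusted p = 0.0427), while Setd1b, a histone H3 lysine 4 methyltransferase, rose by 0.71 ± 0.10 (adjusted p = 4.05e-07). Another lincRNA gene on the same strand covers AI480526 completely, so its counts are uncertain. Both lincRNA calls were lost with the length adjustment (0.21, 0.228 and 0.06, 0.707), with DESeq2 (0.216 and 0.231), and without untreated replicate 2 (0.30, 0.146 and 0.22, 0.232) or ZBTB21_degron replicate 2 (0.21, 0.299 and 0.22, 0.197), and that of 1700086O06Rik also without untreated replicate 1 (0.0657). 5930412G12Rik, 0.151 kb from the Wnt receptor gene Fzd10, had a log2 fold change of 0.38 ± 0.16 (adjusted p = 0.0593) that passed without untreated replicate 1 (0.58, 0.0319) or ZBTB21_degron replicate 2 (0.50, 0.0206). Fzd10 rose by 0.46 ± 0.10 (adjusted p = 0.000399), and had a value of 0.23 (0.0937) with the length adjustment. 6030443J06Rik, of 257 kb, went from 78.6 and 83.9 to 60.4 and 64.1 CPM and fell by 0.39 ± 0.09 (adjusted p = 0.00042), but had a log2 fold change of 0.00 (0.979) with the length adjustment. Orc5, a subunit of the origin recognition complex whose start lies 3 bp away, fell by 0.45 ± 0.08 (adjusted p = 2.31e-05). Gm26608 fell by 0.58 ± 0.23 (adjusted p = 0.0390) beside Insig1, a regulator of sterol synthesis, whose value of 0.17 ± 0.11 did not pass (adjusted p = 0.216). 1110019D14Rik fell by 0.24 ± 0.09 (adjusted p = 0.0288), and had a log2 fold change of 0.09 (0.474) with the length adjustment. 4632411P08Rik, at 3.82 and 4.29 and then 2.29 and 2.24 CPM, had a log2 fold change of -0.83 ± 0.37 that did not pass (adjusted p = 0.0702). Its start lies 309 bp from that of Lmbr1, which encodes a membrane protein and fell by 0.25 ± 0.07 (adjusted p = 0.00453). The call of Lmbr1 was lost with the length adjustment (0.07, 0.529), with DESeq2 (0.0581) and without untreated replicate 2 (-0.09, 0.451).

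Gm26608 lost its call without untreated replicate 1 (0.154), untreated replicate 2 (0.105) or ZBTB21_degron replicate 2 (0.205), and 1110019D14Rik without untreated replicate 2 (0.277), ZBTB21_degron replicate 1 (0.102) or ZBTB21_degron replicate 2 (0.115). Neither passed with the length adjustment, with DESeq2 or with no filter. Gm42997, 0.062 kb from the ribosomal protein gene Rpl34, and named for its replicate spread, was at 86.9 and 40.5 CPM in the untreated and 52.5 and 49.8 CPM in the ZBTB21_degron libraries. Untreated replicate 1 alone stood high, the groups overlapped, and the log2 fold change was -0.33 ± 0.48 (edgeR adjusted p = 0.670). Without that library it was 0.35 (0.0345). It was -0.75 (2.54e-10) without untreated replicate 2, -0.37 (0.0157) without ZBTB21_degron replicate 1 and -0.30 (0.0410) without ZBTB21_degron replicate 2, where the lone library of the group is assumed to vary like the others. Rpl34 rose by 0.51 ± 0.12 (adjusted p = 0.000696), and lost the call with the length adjustment (0.28, 0.0715) and without ZBTB21_degron replicate 2 (0.30, 0.0617).

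Some pairs at a larger distance are named after their values were seen, for the known role of the coding gene. Gm34276 (chromosome 13) had 20 and 19 counts in the untreated and 8 and 7 in the ZBTB21_degron libraries and fell by 1.72 ± 0.41 (edgeR adjusted p = 0.000745). It lies 161 kb from Jarid2, a partner of Polycomb repressive complex 2. Jarid2 was at 2165 and 2188 and then 1319 and 1366 CPM and fell by 0.70 ± 0.04 (adjusted p = 9.23e-19). Gm34276 entered the set mainly through its counts in the untreated libraries, so its decrease adds no support to that of Jarid2. 4632428C04Rik, 43.0 kb from Hes1, an effector of Notch signalling, went from 13.6 and 12.6 to 22.4 and 17.7 CPM (0.63 ± 0.17, adjusted p = 0.00339), and Hes1 rose by 0.57 ± 0.20 (adjusted p = 0.0226). The call of 4632428C04Rik was lost without ZBTB21_degron replicate 1 (0.44, 0.110) and with DESeq2 (0.0865). The call of Hes1 ended with the length adjustment (0.34, 0.216), with DESeq2 (0.202) and without untreated replicate 1 (0.66, 0.0540), untreated replicate 2 (0.51, 0.134) or ZBTB21_degron replicate 1 (0.50, 0.121). B830012L14Rik and its nearest coding gene Rtl1, an imprinted gene of retrotransposon origin 95.3 kb away, were both lower, with Rtl1 at -0.70 ± 0.23 (adjusted p = 0.0150) at -0.33 (0.446) without untreated replicate 2, and with an adjusted p of 0.155 by DESeq2.

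In other pairs the genes moved apart. Gm48187 went from 53.7 and 56.2 CPM in the untreated to 34.8 and 38 CPM in the ZBTB21_degron libraries, a decrease of 0.60 ± 0.11 (edgeR adjusted p = 1.31e-05). Its nearest coding gene, Mycn, a MYC family transcription factor 61.4 kb away, rose by 0.29 ± 0.11 (adjusted p = 0.0407). The call of Mycn was lost with the length adjustment (0.06, 0.756), with DESeq2 (0.243) and without untreated replicate 2 (0.20, 0.293) or ZBTB21_degron replicate 1 (0.23, 0.229). Gm26510 fell by 0.35 ± 0.09 (adjusted p = 0.000911), although another lincRNA gene on the opposite strand lies across nearly all of it, while Tgif1, a repressor of TGF-β signalling, rose by 0.40 ± 0.09 (adjusted p = 0.000275), with a value of 0.22 (0.0549) with the length adjustment. Unlike these pairs, the abundant D030068K23Rik and its distant neighbour Zfhx3 both fell (Zfhx3 by 0.34 ± 0.04, edgeR adjusted p = 2.51e-08). With the length adjustment Zfhx3 had a log2 fold change of 0.10 that did not pass (edgeR adjusted p = 0.111).

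Promoter windows of RefSeq were found for 217 of the 437 genes, and in 141 of these the RefSeq start lay within 100 bp of the GENCODE one. In the 22 such windows of lincRNA genes that were divergent by gene body the median GC content was 67.2% and the ratio of observed to expected CpG 0.873, against 51.7% and 0.364 in the 119 others. The median over all 32851 windows was 52.7% and 0.384. Of the 3 windows printed, that of Gm34086 had 74% GC and a ratio of 1.12, and those of F630040K05Rik and Gm31108 had 53% and 47.7% GC with ratios of 0.0960 and 0.118. Short motifs were searched on both strands. CCGGAAG, the core bound by ETS factors, was in 21.3% of the 141 windows, 8.86% of all windows and 11.9% of those of coding genes, and in 31.8% of the divergent windows. The CCAAT box (CCAAT) was in 44% against 37.4% of all windows, the TATA box (TATAAA) in 12.8% against 13.6%, the E-box CACGTG in 10.6% against 7.15% and ACGTG, which the E-box contains, in 21.3% against 19.6%. The CEBP-ATF motif (TGATGNAA) was in 4.96% against 3.97% and the NRF1 palindrome in 0.709% against 0.971%. Among the 12 windows of genes that were higher CCGGAAG was in 16.7%, among the 28 of genes that were lower in 21.4% and among the 100 that did not pass in 22%. The window of Gm34086 held the ETS core and the E-box, and that of Gm31108 the ETS core, the CCAAT box, the TATA box and the CEBP-ATF motif, while that of F630040K05Rik held none of the motifs searched.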

How the data were processed

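ChAR-seq was carried out on mouse embryonic stem cells, 2 untreated and 2 ZBTB21_degron libraries. The authors deposited 1 table of raw counts per gene. Reads had been trimmed with cutadapt 2.6, mapped to mm10 and dm6 (the study's methods name bowtie2, the submitters' processing notes STAR 2.7.6a, so the mapper is open), freed of duplicates and counted with featureCounts 1.6.3 from 300 bp after the gene start to its end, introns included. Spike-in reads were not used here, which leaves a shift shared by every gene unmeasured. The strand setting is not given in the sources used here.

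Gene type and position were taken from GENCODE M21. Genes passing filterByExpr (minimum count 10, total 15) were scaled by TMM and compared with edgeR 4.0.16 (quasi-likelihood F test, robust, two-sided, R 4.3.3), Benjamini-Hochberg adjusted over all 14361 genes at 0.05. SE were derived from the F statistic. The scripts were tested on simulated data. At a count of 0 the level may still be up to 0.458 to 0.715 CPM by library (3 counts), taking only counting error into account. Such a count does not by itself show that a gene is silent. The length-adjusted scale used a loess curve (span 0.3) on gene length as offset. The libraries within a group were not copies of each other (chi-square over its degrees of freedom 1.30 and 1.39). These values lie only a little above counting error alone and do not show that the libraries came from separate cultures. Alternatives were DESeq2 1.42.0, limma 3.58.1 voom, other scalings and filters, a replicate block and each library left out.

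The lincRNA genes and lists were chosen with earlier results of these data known. Genes are named by rule: the 8 largest called changes in each direction with a mean of at least 25 counts per library and groups that do not overlap, the 5 most abundant by CPM and by CPM per kb, lincRNAs with a described role, hosts of miRNAs, the 4 divergent genes with the smallest adjusted p in each direction, and their nearest coding genes (some of which are left out of the text). Gm36757, AC133601.1, Spry4, Gm34276, Gm48187, 4632428C04Rik, Gm26510, Gm42997, 6030443J06Rik, 6030407O03Rik, AL805899.1, 6720427I07Rik, 4833445I07Rik, Vps37b and their neighbours were chosen after their values were seen. Sequences are from RefSeq tables on GRCm38.p6.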

Additional observations from a re-analysis of the deposited data

How the results depend on the processing

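With DESeq2 size factors, total-count scaling, no filter and limma voom, the counts of lincRNA genes higher and lower, of all genes and of like and opposite pairs stayed within 1.5 times. The length adjustment left 1423 genes lower, and 14 pairs alike and 8 opposite. With a mean of at least 50 counts, where fewer genes are tested, 15 lincRNA genes were higher and 47 lower, with 13 pairs alike and 8 opposite. DESeq2 called 1523 genes higher and 1458 lower, 5 lincRNA genes higher and 24 lower, and 4 pairs alike and 1 opposite. A log2 fold change of at least 1 left 9 and 15 lincRNA genes. Without 1 library, with fewer samples, 19 to 22 lincRNA genes were higher and 47 to 58 lower, with 16 to 20 pairs alike and 7 to 9 opposite. Beyond fewer genes or samples, the causes of these differences were not tested. Of the 27 and 74 calls, 8 and 19 were kept in every setting that gave a value.

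The replicate numbers did not pair the libraries (correlation of replicate differences 0.024), and the fit with the replicate block called 30 lincRNA genes higher and 80 lower. Of the named genes, Mir17hg (0.19, edgeR adjusted p = 0.0110) and Gm42997 (-0.34, 0.00184) passed the test only then and in the settings given with them.

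Of 85 named genes 63 were past the threshold, 31 of them in every setting with a value. Over 975 gene settings 843 gave the same result, 87 lost and 17 gained the threshold and 28 changed sign. With the length adjustment the log2 fold change became 0.21 for Lncpint, 0.055 for Gm49797, -0.035 for 4930461G14Rik, -0.044 for Mir17hg, -0.12 for Gm17300, -0.0045 for 5430416N02Rik, 0.069 for Jpx, 0.093 for 1110019D14Rik, 0.10 for Zfhx3, 0.0039 for 6030443J06Rik, -0.15 for 4833445I07Rik, -0.050 for Insig1 and 0.066 for Lmbr1. Mir9-3hg was at -0.016 with a mean of at least 50 counts, -0.0032 with DESeq2 and -0.0025 with limma voom. Without 1 library, values ran from -0.012 to 0.14 for 4930461G14Rik, -0.00069 to 0.13 for Gm17300, -0.043 to 0.058 for Mir9-3hg, -0.999 to 0.309 for Jpx, -0.75 to 0.35 for Gm42997, -0.16 to 0.0033 for 6720427I07Rik, -0.12 to 0.21 for 4833445I07Rik and -0.21 to 0.12 for Zfp870. Of the tested lincRNA genes, 206 of 431 had fewer than 100 counts, and of these 10.2% were called, against 10.8% of all genes with 40 to 99 counts.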
